A study of Mus musculus with 12 samples.

Results

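The DNA replication and S phase genes described here are 30 genes that encode the machinery and the regulators of DNA copying. They were taken by symbol from the deposited table, which has 18929 rows, and all 30 were found. The table covers mouse T cells of the C57BL/6 strain that were kept for 5 days in culture conditions driving T helper 1 (Th1) differentiation, the fate of helper T cells known for interferon gamma. It holds 3 libraries labelled Sdhc cKO and 3 control libraries labelled WT. Sdhc encodes a membrane subunit of succinate dehydrogenase, which is both an enzyme of the TCA cycle and complex II of the respiratory chain, and cKO stands for a conditional knockout. The labels give no Cre driver, age or sex, and they do not say whether replicates were separate animals or cultures, so every p-value here measures how these libraries vary and no more. How much of that variation is technical is not known, and sex-linked transcripts, given below, differed within each group. Of the 12 samples and 5 groups of the series, the 6 samples of the Slc25a1 KO, Slc25a11 KO and empty vector groups were not analysed here.

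A cell copies its DNA once per division. In G1, the origin recognition complex and the loading factors Cdc6 and Cdt1 place the MCM2-7 helicase on DNA, and at the start of S phase Cdc45 and the GINS complex join it so that DNA is unwound, primed and copied. The transcription of most of these genes is raised at the G1/S boundary by E2F factors, which cyclin E and its kinase help to free from retinoblastoma proteins. Activated T cells are among the fastest dividing cells of the adult body.

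Levels are given as normalised counts, that is, the count of a gene over the size factor of its library, and fitted differences as log2 fold changes of cKO over control. The cKO libraries held 18144933 to 21983821 counted reads and the control libraries 18272998 to 20815668. The targeted gene, Sdhc, had 1452, 1562 and 1655 normalised counts in cKO 1, 2 and 3 and 1683, 1602.5 and 1892 in control 1, 2 and 3, a fitted difference of -0.15 log2 units (SE 0.09) that limma did not call (adjusted p = 0.978), and since counts per gene do not resolve exons this does not check the labels. The libraries stand apart in sex-linked transcripts. Control 2 and control 3 held both Xist and Y-linked reads, while every other library held only trace levels, or none, of Xist or of Y-linked reads. Reads on 4 Y-linked genes came to 0.207, 193 and 189 RPM, a rate scaled to the reads of each library, in cKO 1, 2 and 3 and 0.048, 131 and 55.1 in control 1, 2 and 3, while Xist had 7565, 0 and 2.15 normalised counts in the cKO libraries and 9779.6, 2490.5 and 6406 in the controls. Of the variance, 49.1% lay on a first component on which cKO 1 and control 1 were both negative and the other 4 libraries positive. The T cell markers, 9 of 9 in the table, summed to 75407 to 89027 normalised counts in cKO and 73413 to 80534 in control, and all 5 Th1 markers to 9470 to 10947 in cKO and 10612 to 11073 in control. Within the Th1 markers the sums hide lower values of Ifng, the signature cytokine, with 858, 880.3 and 865 normalised counts in cKO 1, 2 and 3 and 1342, 1461 and 1342 in control 1, 2 and 3. Tbx21, which encodes the Th1 master regulator T-bet, had 1371, 1501 and 1489 in cKO and 1659.7, 1961 and 1759.9 in control. For both, all cKO values were below all control values. On genotype alone neither passed (limma adjusted p = 0.265 for Ifng, at a log2 fold change of -0.67, and 0.978 for Tbx21, at -0.30), while Ifng passed with the replicate number as a block (limma adjusted p = 0.0255) and 2 of the 5 Th1 markers were called lower with the Y-linked covariate described below. Il12rb2 and Stat4, which make up most of the sum, and Cxcr3 overlapped between the groups. Their part in the member values was not tested.

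E2F factors act through a known type of promoter sequence, which some of the members hold. The 8-letter E2F-type motif was searched as TTTCCCGC, TTTGGCGC, TTTCGCGC or TTTGCCGC on both strands, in the 250 bases before each RefSeq gene start (GRCm38.p6). Of the members, 24 were matched to 27 promoters, and 8 of these promoters (29.6%) held a motif, against 611 of 32851 promoters (1.86%) in the whole table, and 19 did not. The share was 25.0% of 20 promoters of other licensing and firing genes, 22.6% of 31 of G1/S regulators, 18.8% of 16 of checkpoint genes and 11.8% of 34 of other replisome genes. It was 3.57% of 28 promoters of G2/M genes, and 0 of 16 deoxynucleotide supply promoters held the motif. The median GC content of the member promoters was 62.4%, against 52.4% over all promoters. Shown, as examples of the motif in place, are the last 170 bases before the start of the 4 members whose motif lies in that stretch and whose stretch lies wholly outside the annotated gene, each written 5′ to 3′ on the strand of its gene, with the motif in capitals.
Mcm5, chr8:75109339-75109508, plus strand: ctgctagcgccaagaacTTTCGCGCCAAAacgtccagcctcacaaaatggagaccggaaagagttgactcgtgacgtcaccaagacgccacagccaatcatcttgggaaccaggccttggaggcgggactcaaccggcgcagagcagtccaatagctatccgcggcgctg
Mcm6, chr1:128359706-128359875, minus strand: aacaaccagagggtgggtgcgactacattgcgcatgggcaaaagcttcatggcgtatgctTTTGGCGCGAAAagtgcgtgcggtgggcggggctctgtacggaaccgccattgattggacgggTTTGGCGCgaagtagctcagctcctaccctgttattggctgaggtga
Pola1, chrX:93632156-93632325, minus strand: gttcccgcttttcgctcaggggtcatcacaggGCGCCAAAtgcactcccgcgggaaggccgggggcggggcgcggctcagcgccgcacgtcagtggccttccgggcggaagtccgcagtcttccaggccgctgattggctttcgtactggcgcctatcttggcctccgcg
Dtl, chr1:191575545-191575714, minus strand: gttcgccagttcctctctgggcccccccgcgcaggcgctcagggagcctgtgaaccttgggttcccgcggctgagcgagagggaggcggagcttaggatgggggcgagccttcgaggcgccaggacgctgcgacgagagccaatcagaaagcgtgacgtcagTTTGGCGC
In the Mcm6 sequence the motif occurs 3 times, with first bases 110, 106 and 47 bases before the start, and the first pair overlaps on opposite strands. The Mcm5 sequence has a similar overlapping pair, 153 and 149 bases before the start. Pola1 has the motif on the opposite strand 138 bases before the start and Dtl has it 8 bases before the start. Cdc6, Mcm7, Hells and Uhrf1 also held it in at least 1 of their promoters. A match is a description of the letters and not a bound site. The fold changes given below had a median of -0.18 for the 8 members with a motif and -0.18 for the 16 with a promoter and no motif.

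All 30 members had a lower fitted level in the cKO libraries, by small amounts, and none passed the test on genotype alone. Mean levels in cKO were 75.1% to 99.0% of the control mean, and the log2 fold changes, on the log2(value + 1) scale, ran from -0.43 for Ung to -0.00 for Fen1 with a median of -0.18. Over all 12699 tested genes the median was -0.01 and 54.1% had a negative value. Of the members, 0 passed (limma with Benjamini-Hochberg adjustment at 0.05, adjusted p of at least 0.978) and 1, Ung, had an unadjusted p under 0.05. The background of called genes in that fit was 0%, with 445 genes at an unadjusted p under 0.05, of which those lower in cKO were 1.53% of all tested genes. Among the 10320 genes with values over 50 in at least 3 libraries, 58.9% were negative and 1.81% were lower at that p, and the members were 30 and 1 of 30. Counted with TMM scaling, 29 of 30 were negative, and Fen1 turned to 0.01. RNA was taken from a population of cells, so fewer cells in S phase and less of each transcript per cell cannot be told apart.

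**Figure D1:**
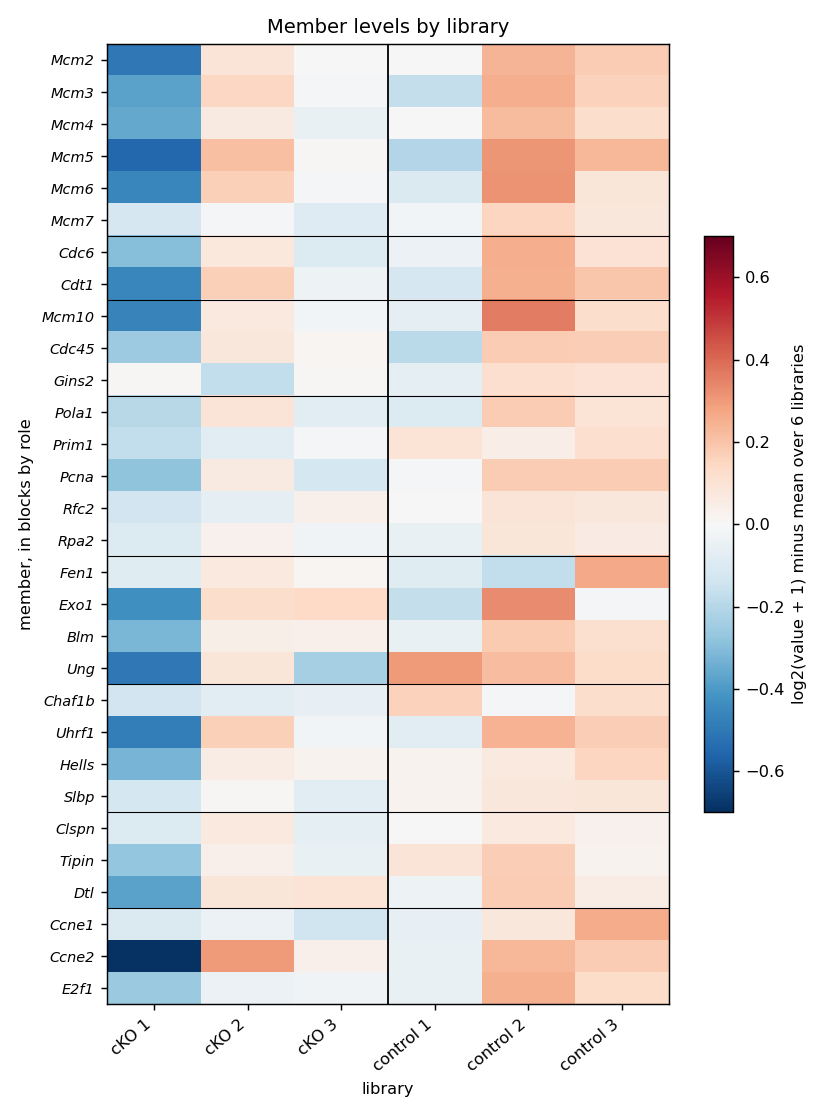
Member levels by library. Colour gives log2(value + 1) minus the mean of that gene over the 6 libraries (columns, cKO 1 to 3 left and control 1 to 3 right), for the 30 members (rows, in blocks by role). The cKO 1 column is the lowest of the 6 libraries for 27 members and the control 2 column is the highest for 21. Over all 12699 tested genes, cKO 1 was the lowest for 4067 and control 2 the highest for 2393.

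Most members were lowest and highest in the same libraries. Taking for each member its log2 level minus its mean over the 6 libraries, the median over the 30 members was -0.29 in cKO 1, 0.07 in cKO 2 and -0.02 in cKO 3, and it was -0.05 in control 1, 0.18 in control 2 and 0.12 in control 3. Library cKO 1 was the lowest of the 6 for 27 members and control 2 the highest for 21. Over all 12699 tested genes, cKO 1 was the lowest library for 4067 and the highest for 3369, and control 2 the highest for 2393. The members took 0.299%, 0.391% and 0.366% of the counted reads in cKO 1, 2 and 3 and 0.364%, 0.427% and 0.399% in control 1, 2 and 3. The groups overlapped at 26 members, with control 1 near the level of cKO 2 and cKO 3. Without cKO 1 the median fold change of the members was -0.06 and 26 of 30 were negative, and without both libraries numbered 1 it was -0.13 with 30 of 30 negative. The fold change of a single member moved by over 1.5 times for 23 of the 30 without cKO 1, for 13 without cKO 2, for 3 without cKO 3, for 10 without control 1, for 11 without control 2 and for 3 without control 3.

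Set against the control of the same number, the cKO library was lower for most members in each pair. The labels do not give this pairing, which was taken from these same expression values. In the pairs numbered 2 and 3 the cKO and control libraries also differed in Xist, as given above. The median log2 difference over the members was -0.27 between the libraries numbered 1, -0.12 between those numbered 2 and -0.16 between those numbered 3, and 28 of 30 members were lower in each. Over all tested genes the medians of the 3 pairs were -0.03, -0.01 and -0.01. The cKO library was lower in all 3 pairs for 25 members, against 21.8% of all tested genes. The exceptions were Gins2, Exo1, Dtl and Ccne2, lower in 2 pairs, and Fen1, lower in 1. With the replicate number as a block, 18 members had an unadjusted p under 0.05, all lower, where the share of tested genes that were lower at this p was 8.01%. With the block, none of the 30 passed adjustment over all genes, against 0.00787% of all tested genes (limma adjusted p = 0.269 to 0.996).

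**Figure D2:**
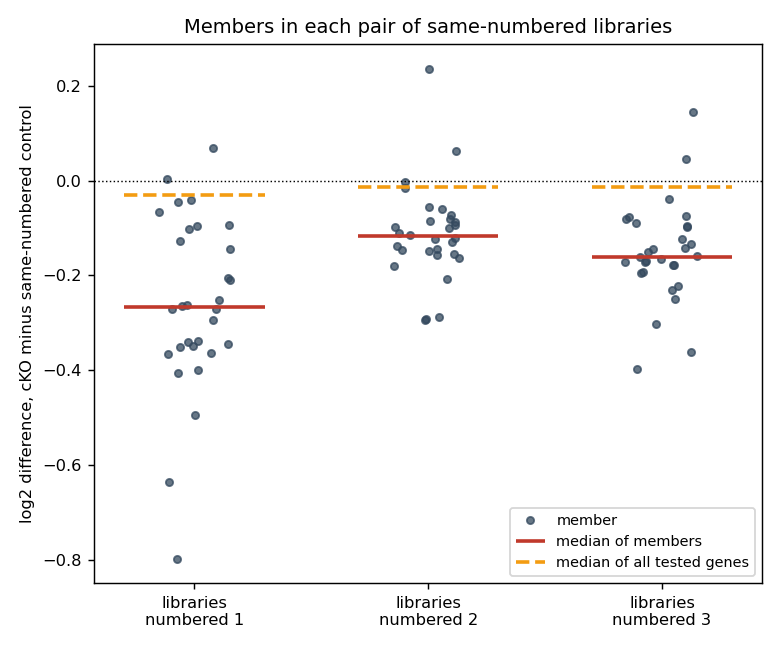
Members in each pair of same-numbered libraries. Points are the 30 members, the vertical axis is the log2 difference of cKO minus the same-numbered control, and lines mark the medians of the members (-0.27, -0.12 and -0.16) and of all tested genes. In each pair 28 of 30 members lie below 0.

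The 6 subunits of the MCM2-7 helicase form the ring that encircles and unwinds DNA at the replication fork, and their log2 fold changes ran from -0.27 to -0.14, with a median of -0.21 and lower cKO values in all 3 pairs for all 6. Without cKO 1 these values were -0.09 for Mcm2, -0.02 for Mcm3, -0.11 for Mcm4, -0.00 for Mcm5, -0.02 for Mcm6 and -0.12 for Mcm7. Mcm2 (chromosome 6, 88883474 to 88898780, minus strand, GRCm38) had 3203, 4822 and 4541 normalised counts in cKO 1, 2 and 3 and 4516, 5346 and 5117 in control 1, 2 and 3. The groups overlapped because cKO 2 and cKO 3 both lay above control 1. Its means were 4188 ± 865 in cKO and 4993 ± 428 in control (SD, n = 3 each), a fitted difference of -0.27 log2 units (SE 0.15, 95% interval -0.63 to 0.09). Mcm3 (chromosome 1, 20802968 to 20820312, minus strand) had 4980.5, 7131 and 6409.9 normalised counts in cKO and 5744, 7699.9 and 7216 in control, a fitted difference of -0.16 log2 units (SE 0.16). Mcm4 (chromosome 16, 15623897 to 15637400, minus strand) had 4701, 6311 and 5819 in cKO and 6054, 7033 and 6582 in control, and its fitted difference was -0.23 (SE 0.12). In both, cKO 1 was the lowest library and control 2 the highest. Mcm5 (chromosome 8, 75109569 to 75128439, plus strand) had 3688, 6248 and 5434 normalised counts in cKO and 4682, 6696 and 6340.0 in control, a fitted difference of -0.22 log2 units (SE 0.21). Its cKO 1 value was far below the other 5 libraries and control 1 was the next lowest. Mcm6 and Mcm7 had fitted differences of -0.20 (SE 0.17) and -0.14 log2 units (SE 0.07). Mcm7 varied least among the 6, between 4261 normalised counts in cKO 1 and 5143 in control 2, and 12.6% of its exonic bases are shared with other annotated genes, among them 2 microRNAs.

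**Figure D3:**
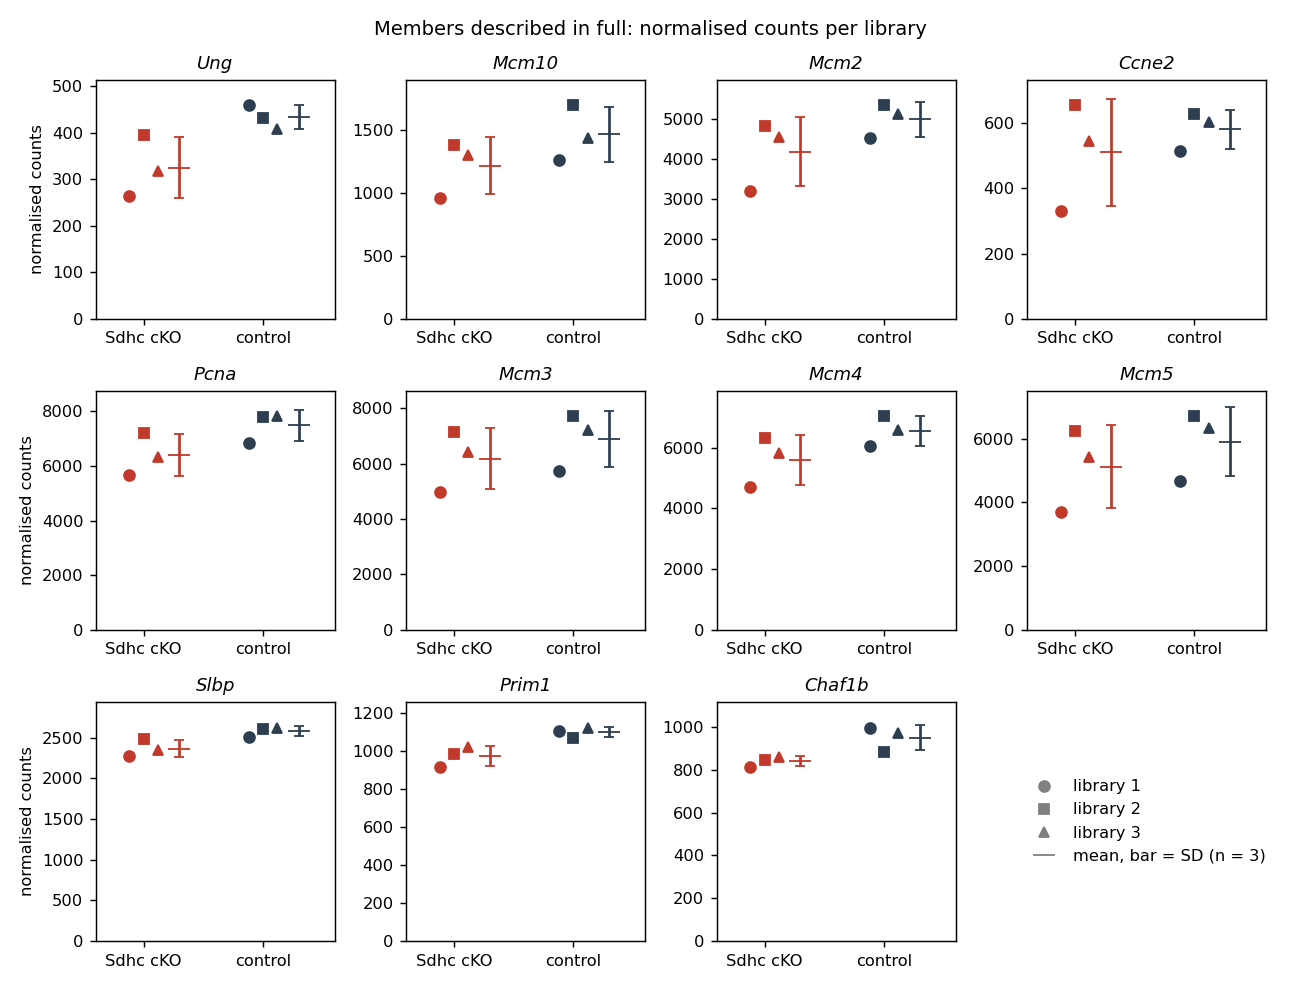
Normalised counts per library of the 11 members described in full. Points are libraries (circle 1, square 2, triangle 3), with Sdhc cKO left of control, and the bar is the mean ± SD (n = 3 each), on axes that start at 0. All 3 cKO values lie below all 3 control values for Ung, Slbp, Prim1 and Chaf1b.

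Among the loading and firing factors the size varied. Cdc6 and Cdt1, which load MCM2-7 onto DNA in G1, had fitted differences of -0.21 (SE 0.12) and -0.22 log2 units (SE 0.17). Mcm10, which helps the loaded helicase start unwinding, had the second largest value of the 30. Mcm10 (chromosome 2, 4989714 to 5012791, minus strand) had 959, 1386 and 1308 normalised counts in cKO 1, 2 and 3 and 1266, 1701 and 1442 in control 1, 2 and 3. Every cKO library was below its same-numbered control, but cKO 2 and cKO 3 were above control 1. Its log2 fold change was -0.28 (SE 0.16, 95% interval -0.65 to 0.10). Cdc45, a component of the active helicase, had -0.11 (SE 0.13) and Gins2, a subunit of the GINS complex, -0.10 (SE 0.10). Gins2 had 389.7 normalised counts in cKO 1 and 371 in control 1, and its lowest library was cKO 2. For Gins2, 67.3% of the exonic bases are shared with Gse1 on the opposite strand, and the strand setting of the counting is not given in the sources used here, so reads of these genes may not be told apart.

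Pcna, the sliding clamp that holds DNA polymerases on their template, was the most abundant member. Its level per kilobase of annotated exon was 2668 normalised counts in cKO and 3117 in control. Pcna (chromosome 2, 132249162 to 132253314, minus strand) had 5672, 7202 and 6332 normalised counts in cKO 1, 2 and 3 and 6839.9, 7793 and 7813 in control 1, 2 and 3. Only cKO 2 lay above the lowest control, and Pcna averaged 6402 ± 767 in cKO and 7482 ± 556 in control (SD, n = 3 each), with a fitted difference of -0.23 log2 units (SE 0.11, 95% interval -0.47 to 0.01). After Pcna came Mcm3, at 1645 per kilobase in cKO and 1835 in control, Mcm4, at 1563 in cKO and 1827 in control, and Mcm5, at 1283 in cKO and 1479 in control. The differences between Mcm3 and Mcm4 are smaller than the spread of either gene between libraries. The lowest value per kilobase was that of Fen1, at 37.4 in cKO and 37.8 in control. Of the Fen1 exonic bases, 84.2% are shared with other annotated genes, so its place in this ranking is uncertain.

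Prim1, the catalytic subunit of the primase that starts each new strand, was low in cKO without overlap. Prim1 (chromosome 10, 128015168 to 128030037, plus strand) had 918, 982 and 1023 normalised counts in cKO 1, 2 and 3 and 1103, 1069 and 1123 in control 1, 2 and 3. The means were 975 ± 53.2 in cKO and 1098 ± 27.2 in control, a fitted difference of -0.17 log2 units (SE 0.08), with a 2-sided exact permutation p of 0.1, the smallest that 3 against 3 allows. Its partner Pola1, the catalytic subunit of DNA polymerase alpha, had -0.12 (SE 0.10), the clamp loader gene Rfc2 -0.11 (SE 0.08) and Rpa2, a subunit of the single-strand binding protein, -0.06 (SE 0.08). All 5 genes of priming and fork synthesis were lower in cKO in all 3 pairs. For Rfc2, 15.1% of the exonic bases are shared with Lat2 on the opposite strand.

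The 4 members with no overlap between the groups were Prim1, Ung, Slbp and Chaf1b, all with lower cKO values. That is 4 of 30, where 5.64% of all tested genes had all cKO values below all control values. Ung encodes the glycosylase that removes uracil from DNA, and acts in repair behind the fork. Ung (chromosome 5, 114130386 to 114139323, plus strand) had 263, 395 and 316 normalised counts in cKO 1, 2 and 3 and 458, 432 and 407 in control 1, 2 and 3. It is the member with the largest fold change and the only one whose 95% interval left out 0 in that fit, averaging 325 ± 66.3 in cKO and 433 ± 25.7 in control (SD, n = 3 each), with a fitted difference of -0.43 log2 units (SE 0.15, interval -0.78 to -0.08, exact permutation p = 0.1). Slbp, the protein that binds the stem-loop of histone mRNAs, lies on chromosome 5 (33634952 to 33652574, minus strand). It had 2273, 2483 and 2346 normalised counts in cKO and 2510.0, 2609 and 2624 in control, a fitted difference of -0.13 log2 units (SE 0.07, exact permutation p = 0.1). Chaf1b, a subunit of the assembly factor that places histones on new DNA, lies on chromosome 16 (93883901 to 93906115, plus strand). It had 814, 849 and 859.9 normalised counts in cKO and 998, 884 and 973 in control, a fitted difference of -0.18 log2 units (SE 0.08, exact permutation p = 0.1). For Slbp the gap between the highest cKO and the lowest control library was narrow, and for Chaf1b control 2 lay close to the cKO libraries.

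The other chromatin genes were also lowest in cKO 1. Uhrf1, which guides the maintenance of DNA methylation behind the fork, had a fitted difference of -0.23 log2 units (SE 0.17) and 3946 normalised counts in cKO 1 against 5226 to 6543 in the 3 controls. Hells, a chromatin remodeller, had -0.16 (SE 0.11) and was highest in control 3. The nuclease and helicase genes differed more among themselves. Blm, a helicase of recombination repair, had -0.16 (SE 0.12) and was lower in all 3 pairs, while Exo1, an exonuclease of mismatch repair, had -0.11 (SE 0.19) and was higher in cKO 3 than in control 3. Fen1, the nuclease that trims Okazaki fragments, had 85.4, 94.9 and 91.5 normalised counts in cKO 1, 2 and 3 and 85.2, 80.4 and 109 in control 1, 2 and 3, with no consistent order. For Fen1, 84.2% of the exonic bases are shared with Gm10143 and Tmem258 on the opposite strand, so its level is uncertain.

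Among the checkpoint genes, Tipin, of the complex that travels with the fork, had a fitted difference of -0.19 log2 units (SE 0.10), and Clspn, the adaptor through which ATR activates Chk1, -0.06 (SE 0.07). Dtl, which directs the destruction of Cdt1 in S phase, had -0.13 (SE 0.14). The G1/S drivers had a median of -0.22. Ccne2, a cyclin E gene, lies on chromosome 4 (11191351 to 11204779, plus strand) and had 330.4, 655 and 547 normalised counts in cKO 1, 2 and 3 and 514, 627 and 604 in control 1, 2 and 3. It had the widest spread of the members, since cKO 1 was the lowest and cKO 2 the highest of the 6 libraries, and its log2 fold change of -0.24 has a 95% interval of -0.78 to 0.30. Of its exonic bases, 17.4% are shared with Ints8 on the opposite strand. Ccne1, the other cyclin E gene, had -0.19 (SE 0.10) and E2f1, an activator of many S phase genes, -0.22 (SE 0.12).

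**Figure D4:**
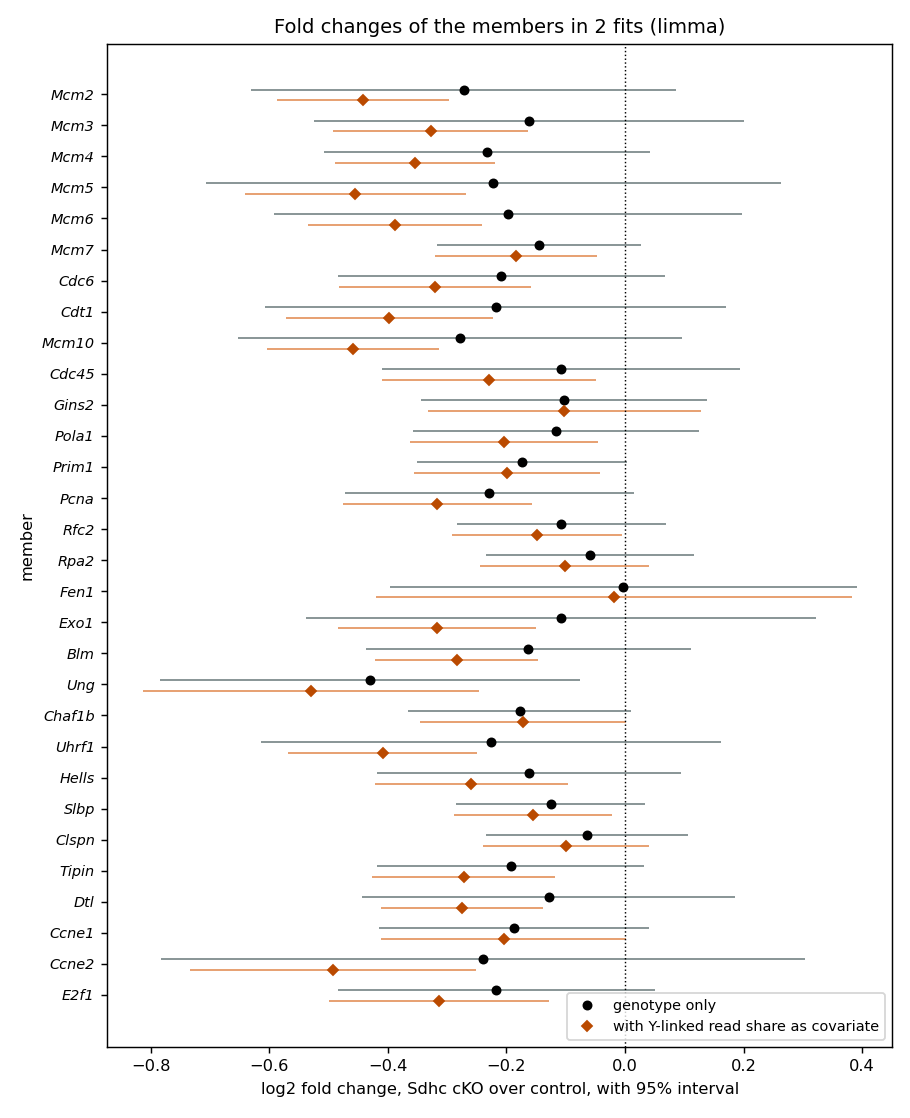
Log2 fold changes of the 30 members, Sdhc cKO over control, with 95% intervals (lines), from limma on genotype alone (black circles) and with the Y-linked read share as a covariate (orange diamonds). With the covariate 16 members passed at an adjusted p of 0.05 and all 30 values stayed below 0.

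The call changed when the sex-linked difference between libraries was entered in the fit. With the Y-linked read share as a numeric covariate, 16 of 30 members fell in cKO past an adjusted p of 0.05, against 4.86% of all tested genes called lower, and the median of the 30 was -0.28. The 16 were Mcm2, Mcm3, Mcm4, Mcm5, Mcm6, Mcm10, Cdc6, Cdt1, Pcna, Uhrf1, Ung, Exo1, Blm, Tipin, Dtl and Ccne2, with log2 fold changes from -0.53 for Ung to -0.27 for Tipin (limma adjusted p = 0.0107 to 0.047). Mcm10 had -0.46 (SE 0.07, limma adjusted p = 0.0107), Mcm2 -0.44 (SE 0.07, limma adjusted p = 0.0112) and Uhrf1 -0.41 (SE 0.07, limma adjusted p = 0.016). By edgeR on the recovered reads with the same covariate 13 members were called lower, against 3.35% of all tested genes, and all 13 were among the 16. The covariate has 6 values, differs between the groups and leaves 3 residual degrees of freedom. Between the libraries numbered 1, both with almost no Y-linked reads, the member median was -0.27, as given above. That difference rests on a single library per group, and both are in the covariate fit. Library cKO 1 was the lowest for 27 members, and without it the member median on genotype alone was -0.06. The covariate fit was not repeated with a library left out. Whether the sex of the cells or another property of these libraries sets the covariate's part was not tested.

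Transcripts that mark other cells were scarce. The cKO and control sums did not overlap for the NK cell markers, though each of these genes taken singly overlapped between the groups. The NK cell markers, 5 of 5 in the table, summed to 334 to 407 normalised counts in cKO and 465 to 516 in control. The B cell markers, 5 of 6 in the table, summed to 44.1 to 108 in cKO and 64.9 to 80.4 in control, and cKO 1, the library with the lowest member levels, had the highest sum. The myeloid markers, 5 of 6 in the table and with Cd14 and Lyz2 at under 3 in every library, summed to 93.1 to 186 in cKO, again highest in cKO 1, and 103 to 139 in control. The CD8 T cell genes, 2 of 2, summed to 235 to 547 in cKO and 278 to 368 in control, the dendritic cell genes, 4 of 5, to 67.3 to 88.6 in cKO and 58.3 to 83.3 in control, the erythroid genes, 3 of 4, to 33.1 to 53.8 in cKO and 13.0 to 112 in control, and the granulocyte genes, 2 of 5, to at most 7.53 in cKO and 15.4 in control. Their part in the member values was not tested.

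The other genes of the replication pathway also had negative medians, each smaller in size than that of the members. Of 32 further replisome and polymerase genes, 30 were below 0 (median -0.13). Of 21 further licensing and firing genes 17 were negative (median -0.11), and of 21 checkpoint and fork protection genes 17 (median -0.07). Deoxynucleotide supply genes were negative in 14 of 15 cases (median -0.15) and G1/S regulators in 22 of 28 (median -0.11). The cKO library was lower in all 3 pairs for 22 of the 32 replisome genes, 8 of the 15 deoxynucleotide genes, 8 of the 28 G1/S regulators, 6 of the 21 licensing genes, 7 of the 21 checkpoint genes and 6 of the 30 G2/M genes, against 21.8% of all tested genes. All cKO values were below all control values for 7 of the 32 replisome genes (21.9%), against 4 of 30 members (13.3%) and 5.64% of all tested genes. The same held for 2 deoxynucleotide genes, 3 G1/S regulators and 1 gene each of the licensing, checkpoint and G2/M lists, and 1 checkpoint gene had all cKO values above. The G2/M genes, which act later in the same cycle, had 19 of 30 negative values and a median of -0.02, close to that of all tested genes. None of these genes passed on genotype alone (limma, background 0% of tested genes). With the covariate, 3 genes of the further replisome list were called lower and 1 higher, 3 of the further licensing list, 3 of the checkpoint list, 7 of the G1/S regulators and 5 of the deoxynucleotide list were called lower, and of the G2/M list 0 were called lower and 1 higher. In that fit 4.86% of all tested genes were called lower and 209 of 12699 higher, so that the 9.38% of the further replisome list is not far from the background.

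**Figure D5:**
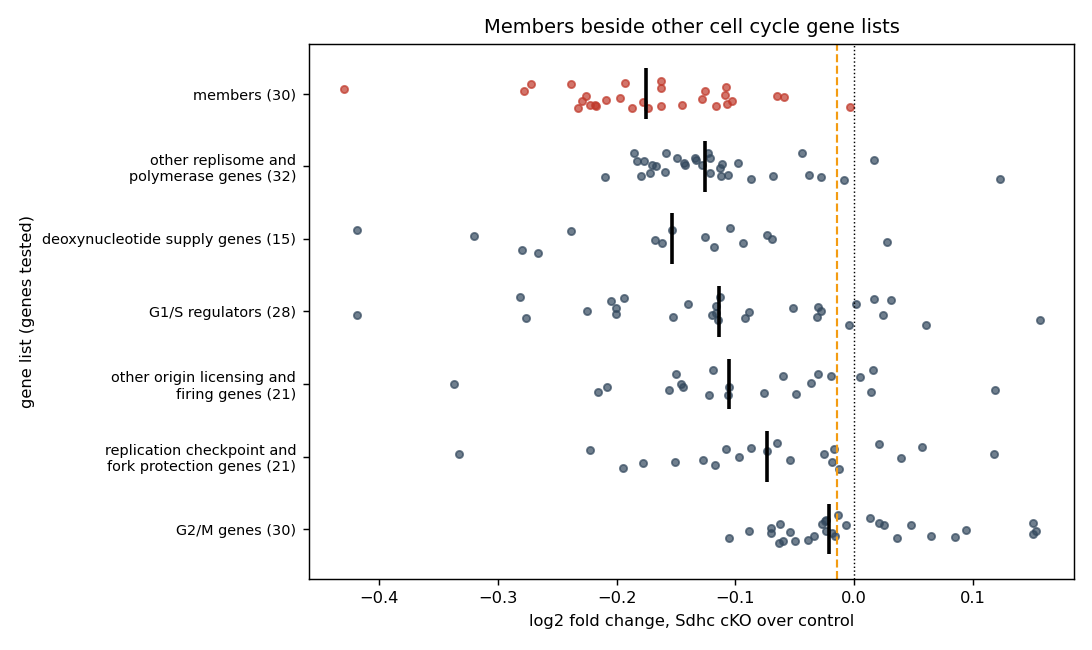
Log2 fold changes of the members and of 6 other cell cycle gene lists, Sdhc cKO over control. Points are genes, black bars are medians and the dashed line is the median of all tested genes (-0.01). The member median is -0.18 and the G2/M median -0.02.

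In each of the 6 lists the gene with the largest fold change and a mean of at least 50 normalised counts was singled out. Orc1, a subunit of the origin recognition complex, averaged 258 ± 57.4 in cKO and 322 ± 41.5 in control, a fitted difference of -0.34 log2 units (SE 0.19). Rnaseh2c, a subunit of ribonuclease H2, had -0.21 (SE 0.13) and Atr, the kinase of the replication checkpoint, -0.33 (SE 0.23). Tfdp1, which pairs with E2F proteins on DNA, had 2534, 3243 and 3111 normalised counts in cKO 1, 2 and 3 and 3321, 3936 and 3509.9 in control 1, 2 and 3. All cKO values were below all control values, with a fitted difference of -0.28 log2 units (SE 0.11, exact permutation p = 0.1). Shmt1, of the folate cycle that feeds thymidylate synthesis, had -0.42 (SE 0.28), and Cdc25c, a phosphatase of mitotic entry, 0.15 (SE 0.20). Each of these had a limma adjusted p of 0.978 on genotype alone.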

How the data were processed

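RNA-seq of 6 libraries of mouse Th1 cells was used, 3 labelled Sdhc cKO and 3 controls, grouped by their titles. Per the labels' protocols, cells were sorted and libraries made with Illumina's TruSeq RNA kit. The submitters' processing notes name STAR, HTSeq, DESeq2 and the build mm10. The deposited signal values are counts divided by 1 size factor per library (0.909 to 1.11): in each library 100% of values were whole multiples of a step to within 0.01, which gave back the reads. For cKO 1 the step is close to 1, which makes the recovery harder to check, but at a step of exactly 1 only 13.1% of its values above 0 were whole. The sources used here give neither the annotation nor the strand setting.

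The main test was limma-trend in R 4.3.3 (limma 3.58.1) with genotype alone. It used log2(value + 1) of the 12699 genes that exceeded 10 in 3 or more libraries, and p-values were adjusted over all of them by Benjamini-Hochberg, with calls at 0.05. The plan named limma-trend for normalised values and edgeR for raw counts. For single genes a 2-sided exact permutation test was added. Alternatives were TMM and library total scaling, other filters and pseudocounts, the replicate block, each library left out and the Y-linked covariate. That covariate is the share of reads on Uty, Kdm5d, Eif2s3y and Ddx3y, relative to the highest library. On recovered reads, edgeR 4.0.16 and DESeq2 1.42.0 were run. Chosen after seeing the data were edgeR with the covariate or block, and both libraries numbered 1 left out. The plan of the main test named the replicate block as an alternative and no other covariate. Since the labels give no sex, the Y-linked covariate was drawn from the reads of these same libraries. Tested on simulated data were limma on genotype alone and with the replicate block, edgeR and DESeq2. The behaviour of the Y-linked covariate fits on such data was not tested.

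Groups share replicate numbers. Across genes, how far a library lay from its group mean correlated with the same in its namesake by 0.579, 0.458 and 0.188 for the numbers 1, 2 and 3, each over 0.1, so the numbers were taken as pairs. The labels do not give the pairing, and cKO 3 correlated more with control 2 (0.272) than with control 3.

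The members and lists were chosen with earlier results of these data known. Described in full were the 4 members with the largest fold change, the 4 most abundant per kilobase and those whose groups do not overlap, and from each other list the gene with the largest fold change and a mean of at least 50. Positions and exon lengths came from GENCODE M21 (GRCm38) and promoters from RefSeq (GRCm38.p6).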

Additional observations from a re-analysis of the deposited data

How the results depend on the processing

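The number of members called over all genes was 0 on genotype alone and stayed 0 with TMM or library total scaling, no filter or a filter at 50, pseudocounts of 0.1 and 5, the replicate block, edgeR, DESeq2 and with each library left out (0 to 0), or with both libraries numbered 1 left out. It was 16 with the Y-linked covariate in limma and 13 in edgeR. Over all genes the count was 0, and it was 826 and 670 with the covariate in limma and edgeR, 1 with the replicate block in limma, 1 with the block in edgeR, 2 with DESeq2, 3 without both libraries numbered 1, and 0 to 1 with each library left out. Without cKO 1 it was 1. The median of the members, -0.18, ran from -0.23 (without control 1) to -0.06 (without cKO 1) with each library left out, and the number of negative members from 26 to 30.

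Of single members, Fen1 turned to 0.013 with TMM scaling, 0.00503 with library totals, 0.00434 with edgeR, 0.000321 with DESeq2 and 0.0134 with edgeR and the replicate block. Ranges with each library left out were -0.0892 to 0.128 for Fen1, -0.218 to 0.0782 for Exo1, -0.209 to 0.0269 for Dtl and -0.446 to 0.0463 for Ccne2. The other members kept their sign under every setting run. The cause was not tested. Across the libraries, Dtl had 1458 to 2140 normalised counts, Exo1 529 to 898 and Ccne2 330 to 655. Gins2 and Ung, which kept their sign, had 344 to 420 and 263 to 458, and Fen1 had at most 109. As 84.2% of its exonic bases are shared with other annotated genes, the part of depth in this low count is not known. With 3 libraries per group, the 95% intervals of 29 of 30 members included 0 on genotype alone.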
